A study of Callorhinchus milii with 12 samples.

Results

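Windows of unequal female and male coverage are 10 kb stretches of the elephant shark (*Callorhinchus milii*) genome in which the deep-sequenced female and male livers gave different numbers of CG methylation calls. Scaffolds were cut into adjoining windows, and those with at least 200 calls in both livers added were kept. For each, female calls were divided by male calls, with 1 added to both, on the log2 scale and relative to the median window. Members were selected on this ratio, at 0.6 or more either way. Of 85422 kept windows, 644 were members (0.754%), 329 with more female calls (0.385%) and 315 with more male calls (0.369%). Since the members were chosen by the ratio, these counts and all values of the ratio are descriptions, and nothing was tested.

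Whole-genome bisulfite sequencing was performed on the liver of 1 adult female and 1 adult male that came from commercial fishing, with no treatment recorded. Adaptors were added after bisulfite conversion (PBAT), and both libraries carried the same instrument run, flow cell and lane numbers in their read names. In the female there were 30080951 CG calls from 12682448 reads, and in the male 38128530 from 15880802. With 1 animal per sex, sex and individual cannot be told apart, and no replicate spread is known. Intervals below cover counting error only. The labelled tissue could not be checked against marker genes, since no expression was measured here, and the low-coverage libraries of the study have no calls by position.

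As background, the number of bisulfite reads on a stretch of an animal's genome depends on how many copies of it that animal carries and on how well its reads convert, amplify and align uniquely to the assembly. In vertebrates, most CG dinucleotides outside regulatory elements are methylated by DNA methyltransferases, and long unmethylated stretches often accompany CpG islands. Sex chromosomes, where they differ in dose between the sexes, give unequal coverage along whole chromosomes, whereas deletions and duplications that differ between individuals give unequal coverage over shorter stretches. How sex is determined in the elephant shark was uncharacterised at the time of the study.

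The ratio was spread narrowly around its median, with an SD of 0.21 on the log2 scale over all kept windows. Most members lay close to the limit, and 373 of 644 (57.9%) were under 0.70 either way. The median ratio was 0.67 in female-higher and -0.69 in male-higher members, and 47 members were at 1.0 or more either way, which is 0.055% of the kept windows. The extremes were 3.24 and -2.21, and both lay in runs of adjoining members. Members nearest to the limit and windows just outside it had like values. On scaffold NW_006890081.1 at 1330001 to 1340000, just inside, the female had 280 calls and the male 231. On NW_006890196.1 at 1080001 to 1090000, just outside, they had 705 and 582. On the male side, NW_006890057.1 at 16380001 to 16390000 had 204 female and 388 male calls and was inside, and NW_006890115.1 at 3060001 to 3070000 had 125 and 238 and was outside.

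**Figure D1:**
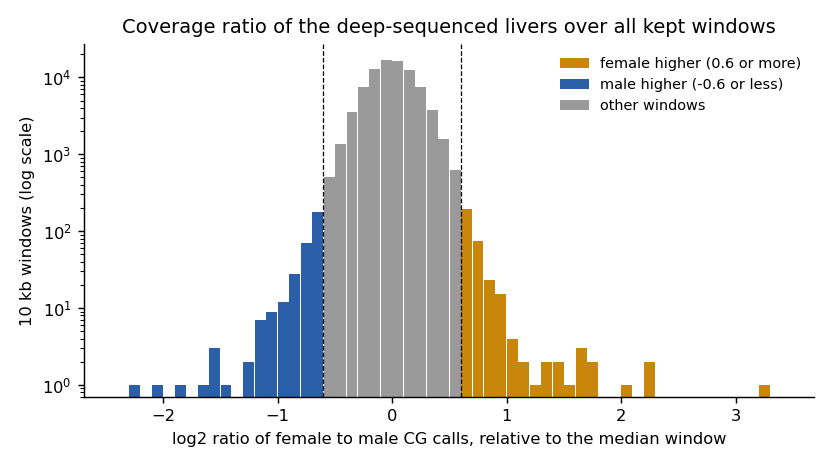
Number of kept 10 kb windows (log scale) against the female to male log2 ratio of CG calls relative to the median window, in steps of 0.1, with dashed lines at the limit of 0.6 either way. Windows past the limit, 329 to the right and 315 to the left, form thin tails on both sides, and the right tail reaches 3.24.

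The balance of directions depended on depth. Among windows with 200 to under 300 calls, 103 were female-higher and 44 male-higher, whereas from 1000 to under 1500 calls 7 were female-higher and 28 male-higher. The median ratio of all kept windows moved along with depth, from 0.10 at 200 to under 300 calls to -0.08 at 2000 calls or more. When the ratio was centred within 10 classes of windows by their number of called CG positions, which was tried with the values already known, 238 windows were female-higher and 395 male-higher. Centred on the library totals, 413 were female-higher and 272 male-higher, so that the split between directions depended on the centre.

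Members as a set were shallow. Female-higher members had a median of 374 calls and male-higher members 528, against 663 in the other kept windows. They also held fewer called CG positions, with medians of 138 and 172 against 209. Members in runs went the other way, with medians of 812.5 calls and 232 positions, against 428.5 and 149 in members that stood alone. The share of windows that were members was 3.45% at 200 to under 300 calls (147 of 4261) and 0.262% at 1000 to under 1500 calls (35 of 13383). It was 0.536% at 2000 calls or more (13 of 2425, 95% Wilson interval 0.314% to 0.915%). Counting error sets a floor under the ratio. An expected SD was computed from the number of reads, for the ratio counted in reads. Its median was 0.21 in female-higher members, 0.20 in male-higher members and 0.16 in the other windows. Calls can share a read, so that this SD is not that of the ratio by calls. Over all kept windows, this SD had a median of 0.226 at 200 to under 300 calls and 0.118 at 2000 calls or more. The observed SD of the ratio by calls was 0.273 and 0.167 in these classes. Deep members are therefore the better measured ones as to counting error only. Their calls can still come from few reads or from a small part of the window.

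**Figure D2:**
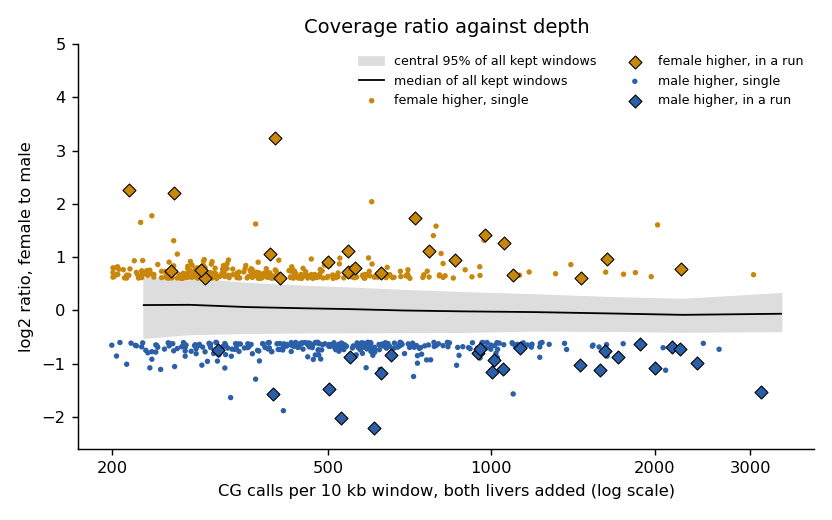
Female to male log2 ratio against the CG calls of the window, both livers added (log scale), for members that stand alone (dots) and members in runs (diamonds). The grey band spans the central 95% of all kept windows in each depth class and the line is their median, which slopes from 0.10 to below 0; single members crowd the limit at low depth, and members in runs extend to high depth and to the largest ratios.

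Counting reads in place of calls gave smaller ratios. A read with several CG dinucleotides gives several calls, so that calls are not independent of each other. The members were chosen by calls, so that a smaller ratio by reads is also in part set by the rule. By reads, the median ratio of female-higher members was 0.52 and that of male-higher members -0.49, and 185 of the 644 members (28.7%) remained at 0.6 or more in the same direction. Over all kept windows, 234 (0.274%) were past the limit by reads. Single members and members in runs differed in this, with 145 of 598 (24.2%) and 40 of 46 (87.0%) past the limit by reads. The ratio by reads was over 3 times its SD expected from counting error in 183 of the 644 members (28.4%). This was so in 143 of 598 single members (23.9%), 40 of 46 members in runs (87.0%) and 339 of 84778 other windows. The remaining members were within 3 times this SD. Members were chosen for unequal calls of the same reads, so that these shares are largely set by the rule. They do not separate real differences from counting error. The 2 sequencing lanes are parts of the calls that chose the members and are no independent check. The ratio had the same direction in both lanes in 636 members (98.8%) and in 50.9% of the other windows, and 223 members, 0.261% of all kept windows, were past the limit in both lanes.

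To describe which liver departed, the calls of each liver were divided by its usual level, the median calls of that liver in kept windows of the same class of called CG positions. In female-higher members, the median female level was 1.17 times the usual one and the median male level 0.738 times. In male-higher members it was 1.21 times in the male and 0.717 times in the female. The lower liver was below its usual level in 607 of 644 members (94.3%) and in 63.0% of the other kept windows, and the higher liver was above it in 536 members (83.2%) and in 63.2% of the others. Which liver counts as lower follows from the ratio itself, so that these shares are in part set by the rule. In 450 members (69.9%) the lower liver was the further from its usual level on the log2 scale, as in 50.5% of the other windows. Both livers lay above it in 37 members (5.75%) and both below it in 106 (16.5%), against 35.9% and 35.7% of the other windows. The number of called positions is itself smaller where a liver has few calls, so that these multiples are approximate.

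**Figure D3:**
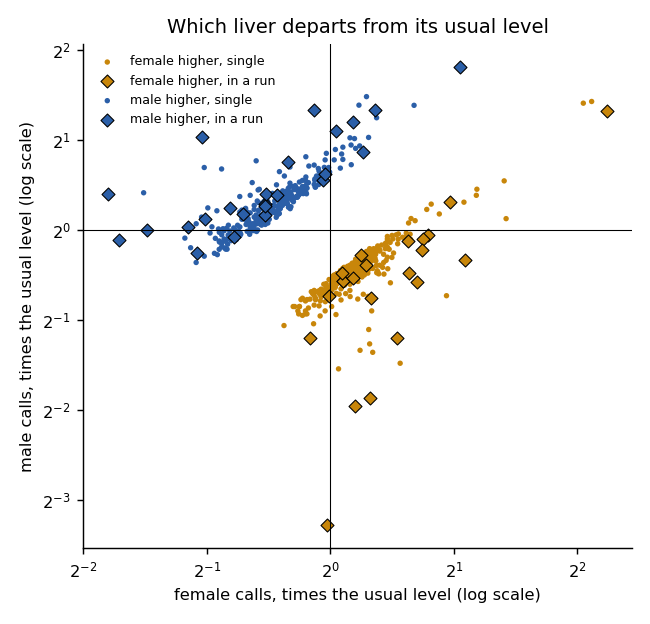
Calls of each member in the female (horizontal) and the male liver (vertical) as multiples of the usual level of that liver (log scales); lines mark the usual level. Most female-higher members lie to the lower right of the crossing and most male-higher members to the upper left, and the member with the least male coverage sits at 0.103 times the usual male level.

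Members were mostly single windows. Of the 644, 598 had no adjoining member of the same direction, and 46 (7.14%, 95% Wilson interval 5.40% to 9.40%) formed 17 runs, 9 female-higher and 8 male-higher. For comparison, 22 of 329 female-higher members (6.69%) adjoined another, and of all kept windows 616 (0.721%) adjoined a female-higher member. For male-higher members these shares were 24 of 315 (7.62%) and 577 of all kept windows (0.675%). A neighbour of the opposite direction was found for 6 members. The longest runs held 5 windows in the female-higher direction and 6 in the male-higher direction. Among the 186 scaffolds with at least 100 kept windows, the median ratio lay between -0.09 and 0.07.

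The longest female-higher run lay on NW_006890180.1 from 320001 to 370000. From its start to its end, the 5 windows had 244, 354, 205, 486 and 354 female calls and 147, 46, 55, 281 and 271 male calls. The female had 1.14 times its usual level and the male 0.446 times, so that over the run as a whole it was male coverage that was low. By reads, 714 female and 383 male, the ratio was 1.21 (95% exact interval 1.03 to 1.40). In its most unequal window, at 330001 to 340000, all 9 segments of 1 kb with at least 20 calls went in the same direction. Few calls of the run were methylated in either liver, 11.0% of the female and 20.5% of the male ones, and the male value of 56.5% in its most unequal window rests on 46 calls.

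The windows beside this run had even fewer male calls, and the minimum of 200 calls kept them out. Between 280001 and 320000 the female had 159, 165, 142 and 110 calls per window and the male 7, 9, 1 and 16. Over these 40 kb there were 576 female and 33 male calls, a ratio of 4.41, and female methylation was 18.6%. Of all windows under the minimum, these 4 were the only ones with at least 100 calls in one liver and a ratio of 2 or more either way, a criterion set after the values were seen. On the far side, the window at 270001 to 280000 was again a member, with 162 female and 64 male calls. Over the 100 kb from 270001 to 370000 there were 2381 female and 897 male calls in all. Male coverage was uneven along it. The windows at 350001 and 360001 held 281 and 271 of the male calls, with the male at 0.718 and 0.692 times its usual level. There the female was at 1.56 and 1.13 times its own.

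The second longest female-higher run, on NW_006890092.1 from 3130001 to 3160000, differed in methylation as well as in coverage. Its 3 windows had 300, 326 and 521 female calls and 201, 235 and 337 male calls. Female coverage was 1.64 times its usual level and male coverage 0.895 times. In these windows, 38.0%, 32.5% and 39.2% of the female calls were methylated, against 89.1%, 85.5% and 85.2% of the male calls. Among 85420 kept windows with at least 50 calls in each liver, 18 (0.0211%) differed by 30 points or more, and the 3 most different of them were these windows.

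In this run the female had more unmethylated calls and, relative to the median window, somewhat fewer methylated ones. The run held 723 unmethylated calls in the female and 106 in the male, a ratio of 3.08. Methylated calls numbered 424 and 667, a ratio of -0.33. Reads with at least 2 CG calls were mostly uniform in the female, where 99 of 293 were fully methylated, 173 fully unmethylated and 21 mixed. In the male, 159 of 209 were fully methylated, 12 fully unmethylated and 38 mixed. The window before the run, with a ratio of 0.59, just missed the limit and a difference in methylation, female minus male, of -25.1 points. The next window outwards, at 3110001 to 3120000, had a ratio of 0.05 and a difference of 3.63 points, so that neither difference was seen there. After the run, the windows at 3160001 and 3170001 had ratios of 0.24 and 0.42 with differences of -15.2 and -17.1 points. The next had 0.06 and 3.33 points, and the window at 3190001 had -0.17 and -16.9 points.

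**Figure D4:**
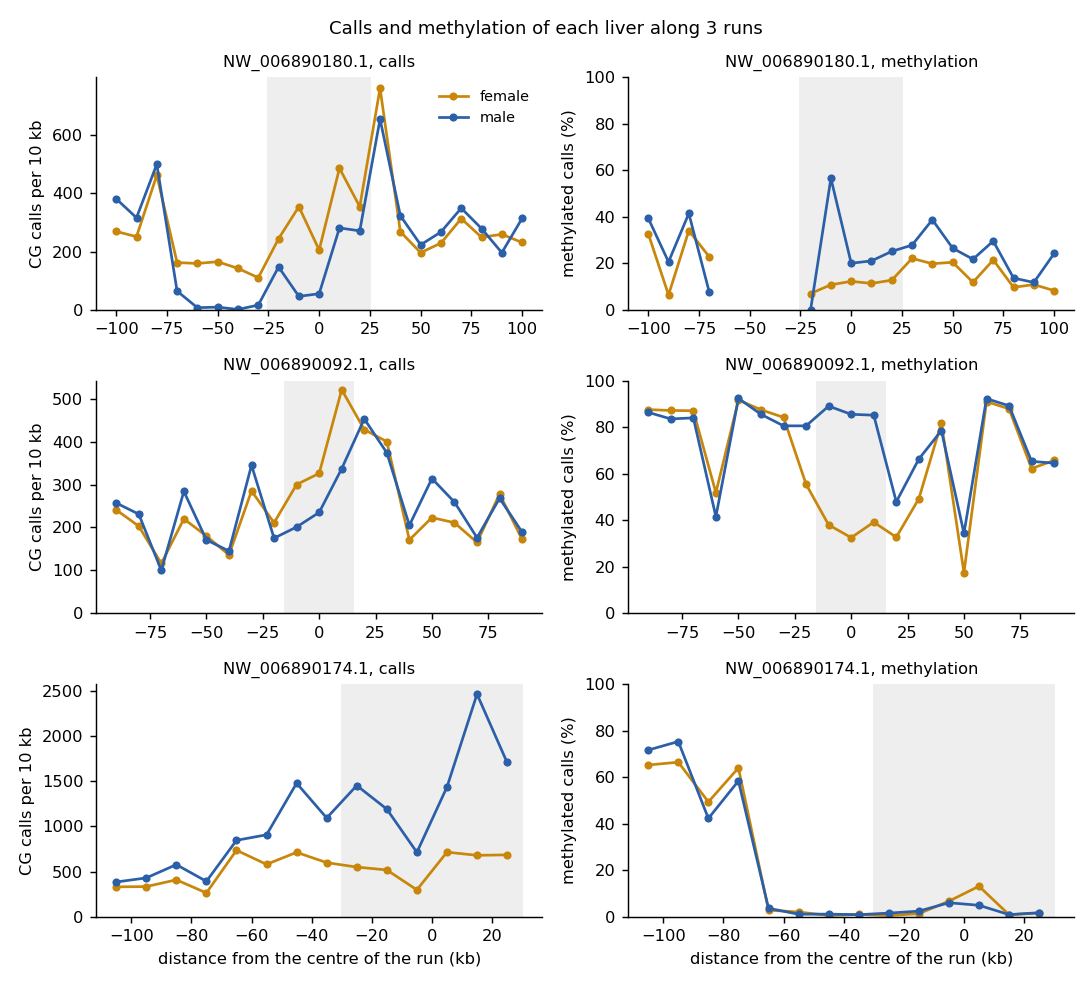
CG calls (left) and percent of calls methylated (right) of the female and male liver in 10 kb windows along 3 runs, against the distance from the centre of the run in kb; the run is shaded and windows under 200 calls have no methylation value. On NW_006890180.1 male calls drop towards 0 to the left of the shaded run, on NW_006890092.1 female calls are higher and female methylation lower within it, and on NW_006890174.1 male calls are higher up to the end of the scaffold while both livers have hardly any methylation.

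The longest male-higher run lay at the end of NW_006890174.1, from 2060001 to 2120000, the last window with calls. Its 6 windows had 550, 518, 298, 715, 680 and 685 female calls and 1452, 1191, 713, 1435, 2463 and 1707 male calls. The male had 1.85 times its usual level and the female 0.923 times, so that relative to this level male coverage was high. The usual level is matched on called positions and not on methylation. In the low-methylated window at 2020001, before the run, the female had 1.38 and the male 1.24 times theirs. Which liver departed from such windows was not tested. By reads, 1196 female and 3190 male, the ratio was -1.10 (95% exact interval -1.20 to -1.01), and in every window at least 8 of the 1 kb segments had more male coverage. The stretch was almost free of methylation, with 4.09% of female and 2.44% of male calls methylated. The windows from 2020001 onwards had 0.923% to 7.67% methylation in both livers added. Of the 4 low-methylated windows before the run, the first had a ratio of 0.12 and the next had -0.32, -0.73 and -0.54, so that male coverage was higher there too and the window at 2040001 to 2050000 was itself a member.

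Other runs were low in methylation in both livers too. The start of NW_006890357.1, from 1 to 40000, had 310, 264, 162 and 424 female calls and 643, 738, 463 and 1160 male calls in its 4 windows. Here the female was low, at 0.534 times its usual level, with the male at 1.08 times, and 7.59% and 5.23% of calls were methylated. On NW_006890378.1, the windows from 210001 to 230000 had 1294 and 804 female calls and 942 and 659 male calls at 0.810% and 1.87% methylation. That run lay within a longer low-methylated stretch in which other windows had ratios from -0.23 to 0.60. On NW_006890268.1 from 670001 to 690000, with 870 female and 397 male calls, methylation was 4.02% and 3.78%, and on NW_006890363.1 from 90001 to 110000, with 194 female and 704 male calls, it was 9.79% and 13.5%.

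The remaining runs were more methylated. On NW_006890349.1 from 300001 to 340000, the 4 windows had 167, 89, 284 and 297 female calls and 383, 519, 766 and 649 male calls. Of these calls 29.7% of the female and 34.7% of the male ones were methylated, and the windows just before and after had ratios of -0.50 and -0.38. On this scaffold 5 of 33 kept windows were members, all male-higher, and the median ratio was -0.31. On NW_006890285.1 from 220001 to 240000 the female had 1360 calls and the male 672, with 64.8% and 69.9% methylation. On NW_006890094.1 from 2350001 to 2370000 there were 497 female and 1486 male calls, and the male had 2.22 times its usual level. The other 7 runs held 2 windows each, with ratios from -0.81 to 1.33.

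Several of the most unequal deep members stood alone. The first window of NW_006890294.1, at 1 to 10000, had 1434 female and 590 male calls. By calls the ratio was 1.60, with all 10 segments in the same direction. By reads it was 1.74 (95% exact interval 1.50 to 1.98). On NW_006890123.1 at 1940001 to 1950000, 232 female and 865 male calls gave -1.57, again in all 10 segments. By contrast, the window of NW_006890079.1 at 100001 to 110000, the first of a run of 2, had 998 female and 638 male calls of which 78.9% lay in 1 segment. It had a mean of 5.51 calls per read and a ratio of 0.46 by reads, and without that segment the ratio was 0.05. On NW_006890180.1 at 1150001 to 1160000, with 561 female and 1533 male calls, the ratio was -1.12 by calls and -0.70 by reads. The size of a ratio by calls alone therefore did not show how much of the window was unequal.

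Within the windows, the direction was followed in segments of 1 kb, which hold few calls and are parts of the calls that chose the members. Of 564 members with at least 5 segments of at least 20 calls, 162 (28.7%) had every segment in the direction of the window, as had 759 of 83145 other windows (0.913%). When the segment that added most to the difference was left out, 191 of 644 members (29.7%) stayed past the limit, 35 of 46 in runs and 156 of 598 single ones. Leaving out that segment lowers the ratio by construction, and an even difference was not modelled. In 69 members (10.7%), at least 50 calls of the higher liver fell in a stretch without any call of the other liver. This was so in 18 of 329 female-higher members (5.47%), 51 of 315 male-higher members (16.2%) and 1.12% of all kept windows. Members were chosen for few calls of one liver against the other, so that these shares are in part set by the rule. One such stretch on NW_006890138.1, within 1900001 to 1910000, was 4893 bp long, and the male had 212 calls there and the female none. On NW_006890125.1 at 3880001 to 3890000, 293 female calls fell in 756 bp without a male call. The ratio of this window was 2.04 by calls and 0.88 by reads. Without the 1 kb segment that added most to the difference, the ratio by calls was 0.53.

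Methylation, which the rule did not use, was somewhat lower in members, in a comparison not matched for depth. Its median, both livers added, was 68.2% in female-higher members (quartiles 55.0% and 81.2%) and 67.6% in male-higher members (50.5% and 78.8%), against 72.4% in the other kept windows (61.0% and 81.8%). Members in runs had a median of 28.2% and single members of 69.3%. Part of the gap thus lay in the runs, without which the difference of medians was -3.16 points in place of -4.43. The share of members did not fall steadily with methylation. It was 0.921% at 40% to under 60%, 0.609% at 60% to under 80%, 0.615% at 80% to under 90% and 0.845% at 90% or more.

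Windows under 20% methylation held more members than others. Of 1176 such windows, 37 were members (3.15%, 95% Wilson interval 2.29% to 4.31%), against 607 of 84246 windows at 20% or more (0.721%, 0.666% to 0.780%). Windows under 20% were deeper, and in every depth class their share was the higher. At 600 to under 1000 calls, for example, it was 11 of 390 (2.82%) against 105 of 27717 (0.379%). At 2000 calls or more it was 7 of 155 (4.52%) against 6 of 2270 (0.264%). Most of these 7 members lay in the same stretch of NW_006890174.1, between 2040001 and 2120000. Many of the members under 20% came from few places. With the members in runs left out, the shares were 16 of 1155 (1.39%, 0.854% to 2.24%) and 582 of 84221 (0.691%, 0.637% to 0.749%). The runs under 20% lay on 6 scaffolds, which held 26 of the 37 members, and without these scaffolds the shares were 11 of 1062 (1.04%, 0.579% to 1.85%) and 602 of 83805 (0.718%). These scaffolds were picked for their members, so that leaving them out narrows the gap by construction. Neighbouring windows are not independent, and the intervals take them as such.

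**Figure D5:**
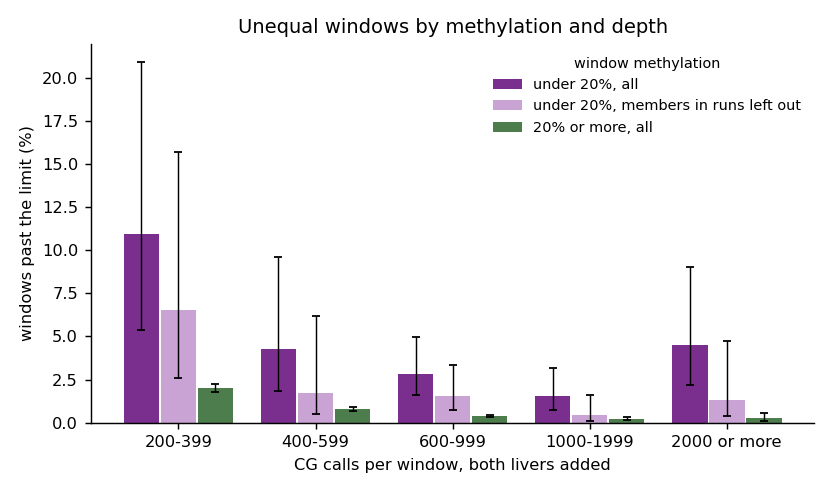
Percent of kept windows past the limit by depth class, for windows under 20% methylation, the same with members in runs left out, and windows at 20% or more; error bars are 95% Wilson intervals. Bars of windows under 20% are the higher in each class, at 4.52% (7 of 155) against 0.264% (6 of 2270) in the deepest. With members in runs left out, the bar there is 1.33% (2 of 150, interval 0.366% to 4.73%). Members in runs are kept in the bars at 20% or more.

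By the length of the stretch under 20%, members were found in 9 of 514 windows that were under 20% alone (1.75%) and in none of 232 in stretches of 2. In stretches of 3 to 5 windows there were 17 of 208 (8.17%), and in those of 6 or more 11 of 222 (4.95%). These 17 members lay on 5 of 41 scaffolds and the 11 on 4 of 14, whereas the 9 in single windows lay on 9 of 164. A run of members under 20% can only fall in a longer stretch, and runs were not left out here. No trend with length is therefore read from these shares. Of 709 stretches under 20%, 20 held a member. Counting only windows under 20% in each liver by itself gave 31 of 1064 (2.91%).

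The female was the less methylated in 222 of 327 female-higher members (67.9%), 201 of 315 male-higher members (63.8%) and 58904 of 84778 other windows (69.5%), counting windows with at least 50 calls in each liver. The median difference, female minus male, was -1.73, -2.34 and -2.46 points. Its size without sign had a median of 5.20 points in members and 5.05 in other windows at 200 to under 400 calls, and of 2.99 and 2.88 points at 1000 calls or more. These classes are of both livers' calls added, and members split them less evenly between the livers. At 400 to under 600 calls it was 5.47 against 4.37 points, where the interval of the members' median, 4.26 to 6.78, still takes in the value of the other windows. Apart from the run on NW_006890092.1, no member with at least 50 calls in each liver differed by 30 points or more.

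Members were spread over 190 of the 330 scaffolds, and 35 of the 186 scaffolds with at least 100 kept windows had none. The highest shares among these were found on NW_006890180.1, with 10 members in 196 windows (5.10%), on NW_006890174.1, with 8 in 202 (3.96%), and on NW_006890224.1, with 3 in 107 (2.80%). Some smaller scaffolds had higher shares, such as NW_006890349.1 with 5 in 33 (15.2%) and NW_006890357.1 with 5 in 35 (14.3%). On the largest scaffold, NW_006890054.1, 10 of 1828 windows were members (0.547%), 5 in each direction. Over 3 times the median calls were found in 3 of 329 female-higher members (0.912%), 10 of 315 male-higher members (3.17%) and 2489 of 84778 other windows (2.94%). Of the 46 members in runs, 6 were that deep (13.0%), most of them in the run on NW_006890174.1. Genes and repeats in these windows were not analysed here.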

How the data were processed

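CG methylation was measured by bisulfite sequencing of PBAT libraries from 1 female and 1 male liver. Reads had been trimmed by the authors with Trim Galore (v0.4.0), shortened at the 5' side, aligned to the larger scaffolds of assembly 6.1.3 with Bismark (v0.14.3) and deduplicated. They deposited 1 line per cytosine and read, as methylated or unmethylated and without strand. Coordinates are those of that assembly, counted from 1. Mapping reports of the 10 low-coverage libraries hold no positions and were not used.

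Calls, methylated calls, reads with a call and called positions were counted per 10 kb window in pandas 2.3.3 and NumPy 2.4.6 under Python 3.11.15. Matplotlib 3.10.9 drew the figures and SciPy 1.17.1 gave the intervals. The centre of the log2 ratio was -0.32. Intervals of ratios come from the exact binomial interval of the female share of reads, and those of shares are Wilson intervals. Medians carry binomial order-statistic intervals. Window counting and runs were tested on simulated data. With 1 library per sex no test was made. The members, lists and limits were chosen with earlier results of these data known. Named windows were, per direction, the 5 most unequal members with at least 1000 calls, the 3 longest runs and windows beside the limit. Named scaffolds were the largest and the 3 richest in members among those with at least 100 kept windows. Other windows were named after their values were seen.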

Additional observations from a re-analysis of the deposited data

How the results depend on the processing

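No paired analysis was possible because there is 1 deep library per sex. In what follows, values are the female-higher and male-higher counts (329 and 315), the percent of members adjoining one of the same direction (7.14%), the difference of median methylation from other windows (-4.43 points), the median female minus male methylation (-1.89 points), the ratio of median calls to other windows (0.664) and the percent with the lower liver below its usual level (94.3%). Values that stayed within 1.5 times the count, or within the 95% interval, are left out. Windows of 5 kb gave 1747 and 1933, 5.11%, -2.35 points and a ratio of 0.770. Windows of 20 kb gave 33 and 39, 22.2% and -8.52 points. A minimum of 400 calls gave 168 and 198, 10.1% and 0.794. A minimum of 1000 calls gave 23 and 32, 25.5%, -24.2 points, 1.09 and 85.5%. A limit of 1.0 gave 21 and 26, 36.2%, -15.6 points, -4.84 points, 0.888 and 89.4%. Reads in place of calls gave 123 and 111, 18.4%, -8.82 points, -0.597 points and 90.2%. Lane 1 alone gave 1048 and 1010, 4.76%, 0.783 and 97.2%, and lane 2 alone 1247 and 1247, 4.85%, 0.809 and 98.1%. By construction, smaller windows and single lanes hold fewer calls per window, and higher minimums leave fewer windows. The cause of the shifts was not tested. Shifting the windows by 5 kb, centring on the library totals and leaving out windows over 3 times the median calls moved no value this far, nor did 2 alternatives chosen after seeing the data, centring within classes of called positions and leaving out members in runs. Methylation stayed lower in members under all alternatives.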

Other observations

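Of 709 windows with 100 to under 200 calls, which the minimum kept out, 46 were past the limit in the female direction and 23 in the male direction, 9.73% in all.

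Of the 18 kept windows in which the livers differed in methylation by 30 points or more, 15 were not members. On NW_006890367.1 at 230001 to 240000, 34.7% of female and 73.5% of male calls were methylated at a coverage ratio of 0.01. The female was the less methylated in 16 of the 18 windows, and in 69.5% of all kept windows that were not members. Some of the 18 adjoined, as in the run on NW_006890092.1 and on NW_006890079.1 at 130001 and 140001. They are therefore not all separate places.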
